A study of Mus musculus with 12 samples.

Results

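Peritoneal macrophages from C57BL/6 mice spent 24 h in DMEM that contained either MOPS or HEPES as buffer, and then received lipopolysaccharide (LPS) at 10 ng/ml for 2 h. The comparison described here is MOPS with LPS (3 libraries) against HEPES with LPS (3 libraries), which are 6 of the 12 RNA-seq libraries of the study. The other 6 libraries, 3 from MOPS and 3 from HEPES without LPS, enter only where the medium difference with LPS is set against that without it. Every group shares the strain, the cell type and the base medium, and no gene was altered. The design text lists pH 6.8 before pH 7.4 and MOPS before HEPES, so that MOPS is read as the acidic medium from the order of the words alone. Buffer and pH change together, and their parts cannot be told apart. The libraries were chosen by their labels, and all 54532 genes of the table were considered, of which 14506 had enough counts to be tested. The question was what the acidic medium does to the gene expression of macrophages that are answering LPS.

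LPS is a component of the outer membrane of Gram-negative bacteria. It is handed by LBP and CD14 to the receptor complex of TLR4 and MD-2, from which MyD88 drives NF-kappaB and MAP kinases and TRIF drives interferon. Inflamed and ischaemic tissue is often acidic, and macrophages sense extracellular protons with G protein-coupled receptors such as GPR65 and GPR132. Resident peritoneal macrophages are long-lived cells whose identity rests on the transcription factor GATA6.

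The libraries with LPS had totals between 21210474 and 24521749 counts for MOPS and between 22447187 and 23506654 for HEPES, and pairs within a group correlated at 0.9969 or above (log2 scale, over all tested genes and all 4 groups). Levels are given in CPM, a gene's count relative to its library's total after scaling for composition, in the order of the libraries numbered 7, 8 and 9 in MOPS and 10, 11 and 12 in HEPES. Values after a gene are log2 fold changes of MOPS with LPS over HEPES with LPS ± standard error, and adjusted p is from edgeR's quasi-likelihood test over all 14506 genes. Whether replicates came from separate animals or cultures is not stated in the labels, so a p-value reflects only how these libraries spread, which may be technical. Groups said not to overlap are 3 against 3 libraries. The share of all tested genes lying apart is not given, so that a lack of overlap is a description and no further support. Macrophage markers were high in every library: the 10 summed to 21700 to 24500 CPM in MOPS and 34000 to 35600 CPM in HEPES, 3 of them rising and 4 falling. Lyz2 made up most of these sums, with 808871 raw counts over the 3 MOPS libraries against 1286858 over the 3 HEPES libraries. Cd14 had 282124 against 382896 counts, whereas Csf1r had 126195 against 92721 and Adgre1 57722 against 53881. Of 11 tested B cell markers, 10 rose and 1 fell, and they summed to 133 to 145 CPM in MOPS against 37.2 to 42.4 CPM in HEPES. Sums of the granulocyte and mast cell list (31.6 to 45.9 against 33.6 to 40.4 CPM), the dendritic cell and small peritoneal macrophage list (49.0 to 54.1 against 47.3 to 54.9 CPM) and the mesothelial, stromal and endothelial list (11.5 to 13.9 against 11.5 to 12.5 CPM) overlapped between the groups. Single members still differed: 2 of 9 tested members rose and 3 fell in the first list, 3 of 8 and 2 in the second, and 0 of 7 and 1 in the third. In the second list Clec9a, which overlaps Clec1b, had 197 counts in MOPS against 15 in HEPES, and Xcr1 365 against 557. T and NK cell markers summed to at most 1.67 CPM, and Ncr1, Gzma, Ly6g, Mpo and Prg2 had no count in either group. The part of the B cell transcripts in the results was not tested. In these bulk libraries fewer cells of a type and less RNA per cell cannot be told apart.

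Of the 14506 tested genes, 3904 (26.9%) rose and 3897 (26.9%) fell in MOPS with LPS at an adjusted p under 0.05. Counts of called members in the gene lists below are to be read against these shares. A change of at least 2-fold was seen in 899 higher genes (6.2%) and 624 lower genes (4.3%), so that large changes were more often increases. The median log2 fold change over all tested genes was 0.0047. With scaling by total counts alone the median was 0.097 and the split became 4885 higher and 2942 lower, or 62.41% higher against 50.04% with composition scaling. Leaving out single libraries gave 44.54% to 50.47% higher. Directions below hold relative to the median gene. The authors' deposited table calls 3123 genes higher and 3146 lower in this comparison, and 6195 of these had the same sign and passed here as well, whereas 0 passed with the other sign. Among protein-coding genes 3577 of 12140 rose and 3658 fell, and among long noncoding genes 173 of 1097 rose and 136 fell.

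The 12 largest increases and 12 largest decreases were chosen among genes whose libraries lay apart between the media, so that this separation is part of the choice. Angptl4, whose secreted product blocks lipoprotein lipase, was at 93.7, 85.7 and 99.7 CPM in MOPS against 2.72, 2.13 and 1.89 CPM in HEPES (log2 fold change 5.37 ± 0.092, adjusted p = 3.48e-28). Slc40a1, the iron exporter ferroportin, was at 14.3, 18.3 and 18.3 CPM in MOPS against 1.25, 1.01 and 1.17 CPM in HEPES (log2 fold change 3.89 ± 0.14, adjusted p = 9.87e-21). Arg1, which splits arginine to ornithine and urea, was at 491, 435 and 432 CPM in MOPS against 38.2, 31.4 and 26.9 CPM in HEPES (log2 fold change 3.81 ± 0.15, adjusted p = 2.37e-08). Each of these 3 genes was higher in every MOPS library than in any HEPES library, as the choice required. Slc40a1 is ENSMUSG00000025993, chromosome 1 from 45908068 to 45926523 in mm10. Pdk4, the kinase that closes pyruvate dehydrogenase, was close to absent in HEPES: 516 counts over the 3 MOPS libraries stood against 2 over the 3 HEPES libraries, a ratio of 242 (95% interval 66.7 to 2000, counting error only).

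The other genes with the largest increases had varied roles. Wnk2, a kinase of the WNK family, was at 31.7, 33.5 and 32 CPM in MOPS against 2.78, 2.98 and 4.06 CPM in HEPES (3.31 ± 0.11). Akr1b8, an aldo-keto reductase with close paralogs, was at 37.9, 33.3 and 40.5 CPM in MOPS against 4.41, 4.68 and 4.67 CPM in HEPES (3.02 ± 0.10). Abcd2, a peroxisomal transporter of fatty acyl-CoA, was at 20.5, 25.6 and 24.7 CPM in MOPS against 3.37, 3.72 and 3.62 CPM in HEPES (2.72 ± 0.10). Ppbp, the precursor of a platelet CXC chemokine, was the least even of the set, at 13.5, 8.75 and 10 CPM in MOPS against 0.871, 1.81 and 2.45 CPM in HEPES (log2 fold change 2.65 ± 0.33, adjusted p = 3.71e-05). Epb41l3 (2.58 ± 0.11), a membrane-skeleton protein, Engase (2.44 ± 0.18), which trims free N-glycans, and Aox1 (2.40 ± 0.15), aldehyde oxidase, rose too. Slc8a1, the sodium-calcium exchanger, was at 98, 109 and 97.7 CPM in MOPS against 21.5, 18.2 and 18.5 CPM in HEPES (2.39 ± 0.061), and Clec4n, the fungal receptor dectin-2, at 811, 802 and 766 CPM in MOPS against 151, 149 and 162 CPM in HEPES (2.36 ± 0.041).

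Among the largest decreases were adhesion, chemokine and cytokine genes. Sele, the adhesion molecule E-selectin, was at 0.771, 0.236 and 0.606 CPM in MOPS against 19.1, 19.8 and 20.5 CPM in HEPES (log2 fold change -5.21 ± 0.21, adjusted p = 1.84e-18). Ccl7, which draws monocytes, was at 8.02, 5.58 and 6.34 CPM in MOPS against 143, 141 and 115 CPM in HEPES (log2 fold change -4.32 ± 0.11, adjusted p = 7.02e-16), and its neighbour Ccl2, the chief chemokine for monocytes, at 49.3, 52.5 and 54.6 CPM in MOPS against 518, 562 and 483 CPM in HEPES (log2 fold change -3.32 ± 0.073, adjusted p = 9.42e-16). Ccl7 is ENSMUSG00000035373, chromosome 11 from 82045712 to 82047525, and Ccl2 is ENSMUSG00000035385, chromosome 11 from 82035571 to 82037453. Edn1, the vasoconstrictor endothelin-1, was at 0.668, 0.426 and 1.10 CPM in MOPS against 11.7, 11.1 and 11.6 CPM in HEPES (-3.99 ± 0.24), and Csf2, the cytokine GM-CSF, at 55, 44.6 and 47.7 CPM in MOPS against 351, 386 and 365 CPM in HEPES (-2.91 ± 0.071). The plot of levels by library shows these genes other than Edn1 beside their levels without LPS.

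The rest of the largest decreases were 6 enzymes and 1 adaptor. Gfpt2, which opens the hexosamine pathway, was at 22.1, 15 and 17.3 CPM in MOPS against 149, 153 and 135 CPM in HEPES (-3.01 ± 0.094), and Upp1, uridine phosphorylase, at 3.08, 2.46 and 2.98 CPM in MOPS against 25.1, 20.5 and 21.7 CPM in HEPES (-2.98 ± 0.17). Ch25h, which makes 25-hydroxycholesterol, was at 35.9, 29.9 and 35.8 CPM in MOPS against 223, 207 and 193 CPM in HEPES (log2 fold change -2.62 ± 0.065, adjusted p = 1.18e-21). Idi1 and Hsd17b7, enzymes of sterol synthesis, were at 3.29, 3.50 and 3.75 CPM in MOPS against 26.9, 27.6 and 29.5 CPM in HEPES (-3.00 ± 0.093) and at 3.60, 3.50 and 4.02 CPM in MOPS against 21.2, 22.6 and 23 CPM in HEPES (-2.59 ± 0.096). Aldh1l1 (-2.67 ± 0.15), a folate enzyme, and Dok7 (-2.87 ± 0.16), an adaptor protein, also fell to low levels.

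The most abundant genes with a change of at least 2-fold were taken as well, 6 in each direction. Hmox1, which degrades heme, was at 6684, 7048 and 6990 CPM in MOPS against 1557, 1696 and 1759 CPM in HEPES (2.05 ± 0.043), and Prdx1, a peroxiredoxin, at 5879, 6218 and 6410 CPM in MOPS against 2324, 2883 and 2889 CPM in HEPES (1.19 ± 0.072). Cd36, a fatty acid and oxidised lipoprotein receptor, was at 3731, 4299 and 4371 CPM in MOPS against 1222, 1682 and 1560 CPM in HEPES (1.47 ± 0.11). Srxn1 (1.03 ± 0.035), Lipa (1.58 ± 0.043), the lysosomal acid lipase, and Ucp2 (1.97 ± 0.037), a mitochondrial carrier, rose as well. Saa3, an acute-phase protein with close paralogs, was at 1962, 1427 and 1458 CPM in MOPS against 6812, 5251 and 5247 CPM in HEPES (-1.84 ± 0.17). Serpinb2, the plasminogen activator inhibitor 2, was at 1032, 783 and 799 CPM in MOPS against 4916, 4565 and 4083 CPM in HEPES (log2 fold change -2.38 ± 0.12, adjusted p = 1.78e-07). Vim (-1.63 ± 0.057), Sdc4 (-1.35 ± 0.079), Plaur (-1.06 ± 0.051) and Socs3 (-1.05 ± 0.13) fell, each with no overlap between the groups.

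**Figure D1:**
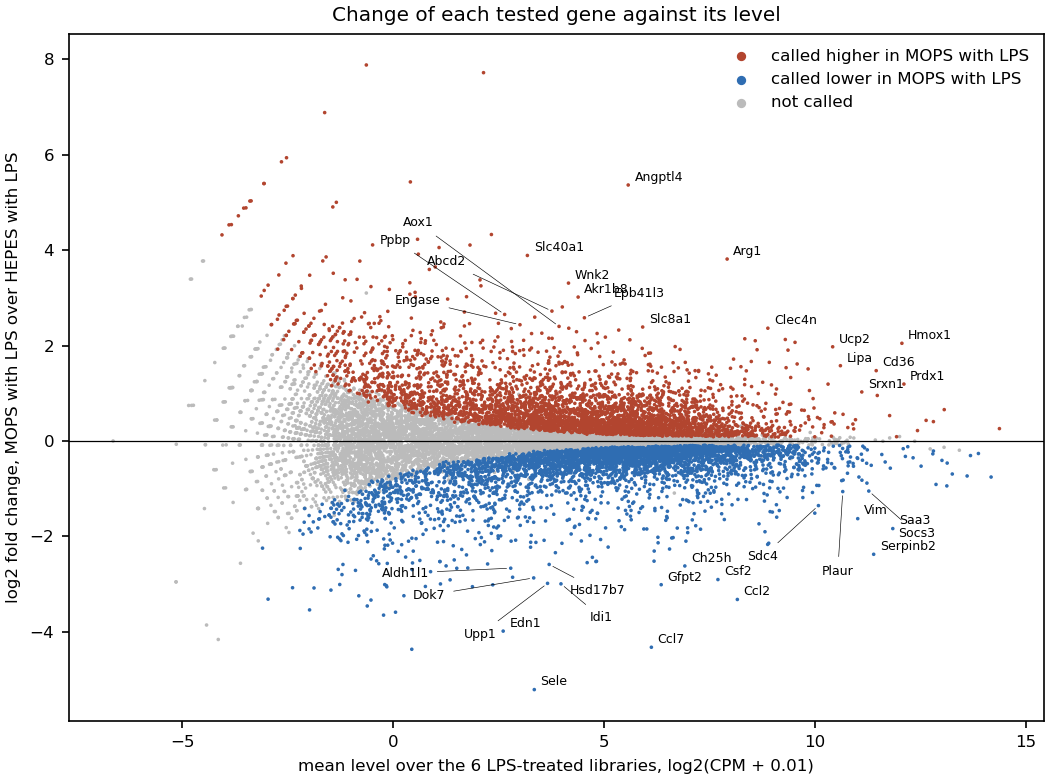
Change of every tested gene, as log2 fold change of MOPS with LPS over HEPES with LPS, against its mean level over the 6 LPS-treated libraries as log2(CPM + 0.01). Red and blue points are the 3904 genes called higher and the 3897 called lower, and Angptl4 and Arg1 stand high while Sele and Ccl7 stand low among the labelled genes.

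**Figure D2:**
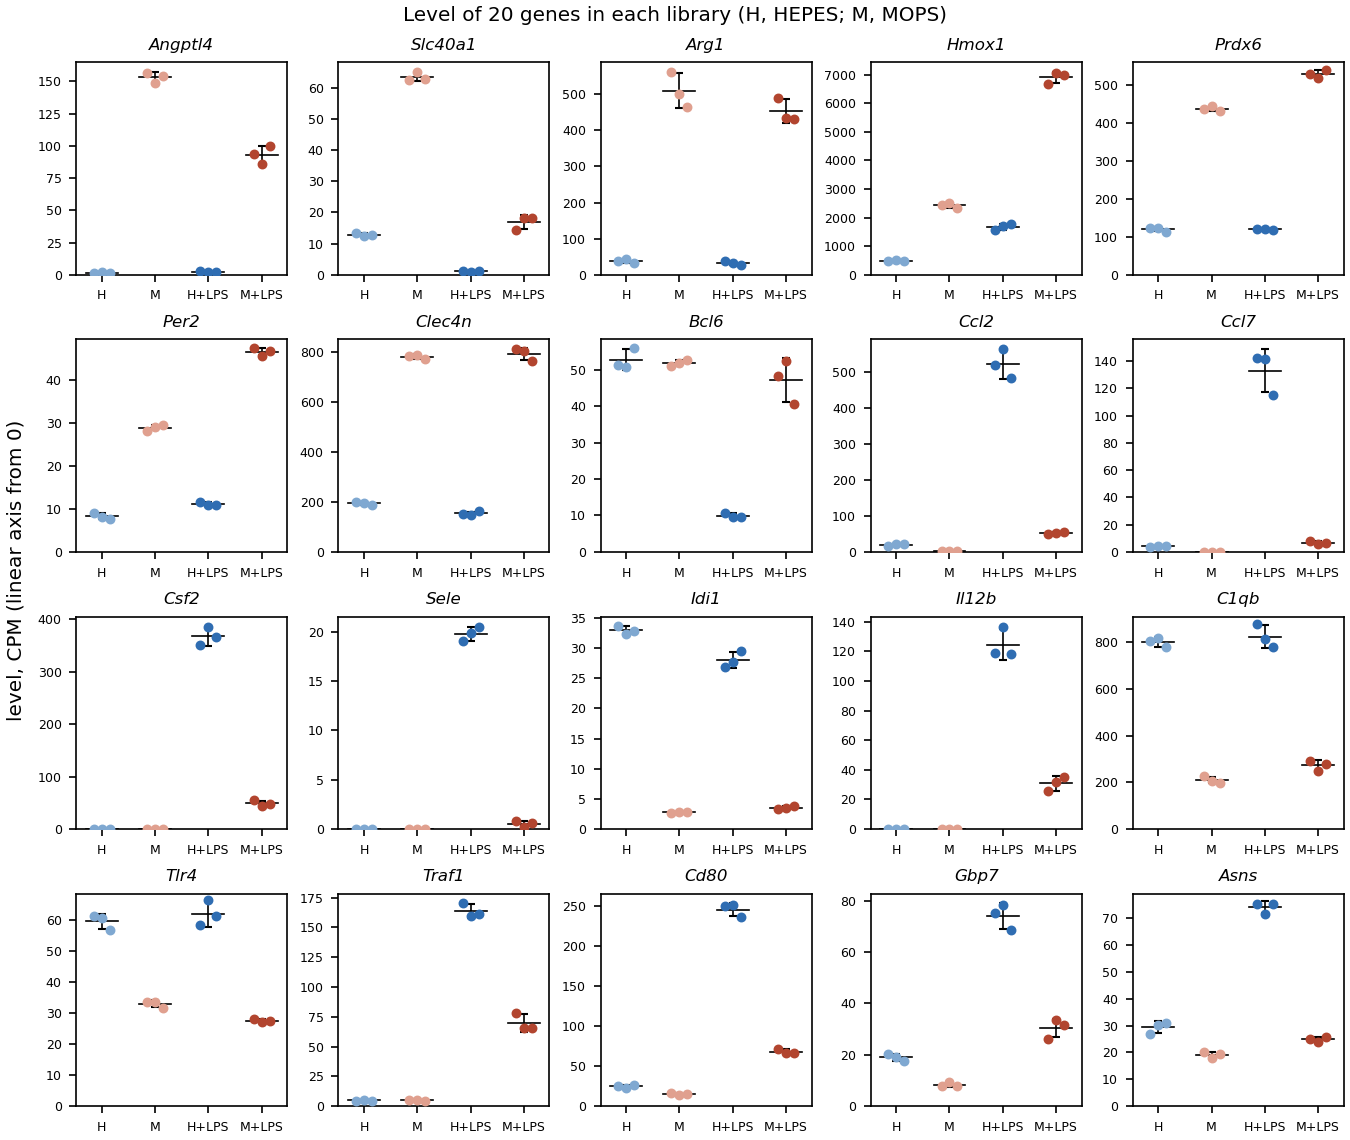
Level in CPM of 20 genes in each of the 12 libraries, on linear axes from 0, with points for libraries, horizontal bars for group means and error bars for the SD (n = 3). Ccl2, Csf2 and Sele are highest in HEPES with LPS, whereas Angptl4 and Arg1 are high in MOPS whether or not LPS was given.

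Receptors for protons and ion transporters did not move one way. In the list of proton-sensing receptors and acid-base transport 6 of 14 tested members rose and 7 fell (median log2 fold change -0.12). Gpr65 was at 14.9, 15 and 18.4 CPM in MOPS against 6.64, 6.86 and 6.79 CPM in HEPES (log2 fold change 1.25 ± 0.1, adjusted p = 3.93e-12). Gpr132 was at 66.8, 56.4 and 61.2 CPM in MOPS against 74.4, 69 and 75.7 CPM in HEPES (-0.25 ± 0.06), so that the 2 receptors changed in opposite directions. Hvcn1, the voltage-gated proton channel, rose (0.50 ± 0.043). The carbonic anhydrase Car13 (-1.53 ± 0.066), the endosomal exchanger Slc9a9 (-1.81 ± 0.081) and the anion exchanger Slc4a2 (-0.99 ± 0.047), which overlaps Fastk, fell.

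The LPS sensing machinery was mostly lower. Of the list of LPS recognition and proximal signalling, 5 of 24 tested members rose and 17 fell (median log2 fold change -0.25), and 6 rose and 12 fell with scaling by total counts. Tlr4 itself was at 28.1, 27 and 27.3 CPM in MOPS against 58.2, 66.5 and 61.2 CPM in HEPES (log2 fold change -1.17 ± 0.057, adjusted p = 3.22e-17), and its co-receptor Cd14 at 5262, 4370 and 4816 CPM in MOPS against 7311, 6816 and 6702 CPM in HEPES (-0.53 ± 0.052). The groups did not overlap for either gene. Ikbkb, the catalytic kinase that releases NF-kappaB, fell (-0.64 ± 0.041), while Irak2 (0.63 ± 0.036) and Irak1 (0.53 ± 0.047), kinases next to MyD88, and Traf3 (0.31 ± 0.043) rose. The regulatory subunit Ikbkg also counted as higher (0.87 ± 0.047), but it overlaps G6pdx on the other strand and the strand setting of the counting is not given in the sources used here. Other Toll-like receptors went the other way: 5 of 8 tested members rose and 2 fell (median log2 fold change 0.29). Tlr13, a sensor of bacterial ribosomal RNA, was at 135, 159 and 151 CPM in MOPS against 47.2, 58.5 and 56.5 CPM in HEPES (1.46 ± 0.067), Tlr6 rose (0.71 ± 0.11), and Tlr2 (-0.32 ± 0.05) and Tlr3 (-0.57 ± 0.14) fell.

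NF-kappaB genes, which LPS induces as its own feedback, were lower on balance. Of the subunits and feedback inhibitors, 4 of 19 tested members rose and 11 fell (median log2 fold change -0.16). Traf1, an adaptor that NF-kappaB induces, was at 78.4, 65.7 and 65.4 CPM in MOPS against 170.1, 159 and 161 CPM in HEPES (log2 fold change -1.23 ± 0.057, adjusted p = 6.66e-17). Tnfaip3, the ubiquitin-editing inhibitor A20, was at 1689, 1550 and 1580 CPM in MOPS against 2965, 2760 and 2794 CPM in HEPES (-0.82 ± 0.044), and its partner Tnip1 at 844, 744 and 770.1 CPM in MOPS against 1231, 1131 and 1171 CPM in HEPES (-0.58 ± 0.045). Nfkb1 fell too (-0.53 ± 0.041), whereas Rela (0.14 ± 0.039), Cyld (0.17 ± 0.049), Birc3 (0.11 ± 0.046) and Nfkbie (0.11 ± 0.045) rose slightly. Each of these 4 calls was lost when single libraries were left out, Rela without library 7, 11 or 12 (adjusted p = 0.066 to 0.104), Cyld without 8 or 10 (0.0683 and 0.141), Birc3 without 7, 8, 11 or 12 (0.243 to 0.491) and Nfkbie without any 1 of the 6 (0.0817 to 0.516). Birc3 and Nfkbie also failed with RLE scaling (adjusted p = 0.063 and 0.0756) and with DESeq2 (0.0943 and 0.0955). The list had 2 higher and 11 lower members in both of these settings, and 5 and 9 with scaling by total counts. Nfkbiz (-0.051, adjusted p = 0.241) did not pass, but passed without library 7, 10 or 12 (-0.122, -0.0951 and -0.0987).

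The promoters of members of this list are shown because a searched motif stood in them more often than in promoters at large. The letters GGNNTTTCC, a core of NF-kappaB sites, were sought on both strands in windows from 250 bases before to 50 bases after the start of 10156 tested genes, taken from RefSeq (GRCm38.p6). They were in 8 of 16 promoters of the list and in 6.11% of all promoters, in 8.02% of those of genes called lower by at least 2-fold and in 5.51% of those called higher by at least 2-fold. Among genes called by any fold the shares were 6.33% for lower and 5.52% for higher, and genes not called had 6.38%. Below are the 250 bases before the start of the 2 called members with this motif that fell most, a choice made after their values were seen, with the motif in capitals, in the direction of transcription. Tnfaip3 lies at chr10:19015411-19015660, reverse strand, and Tnip3, which encodes an A20-binding protein (-0.65 ± 0.057), at chr6:65590148-65590397, forward strand.
Tnfaip3: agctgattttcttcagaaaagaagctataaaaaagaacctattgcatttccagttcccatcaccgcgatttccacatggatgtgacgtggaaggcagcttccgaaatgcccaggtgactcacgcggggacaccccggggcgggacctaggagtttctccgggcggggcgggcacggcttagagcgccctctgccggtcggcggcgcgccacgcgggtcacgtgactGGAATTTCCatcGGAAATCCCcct
Tnip3: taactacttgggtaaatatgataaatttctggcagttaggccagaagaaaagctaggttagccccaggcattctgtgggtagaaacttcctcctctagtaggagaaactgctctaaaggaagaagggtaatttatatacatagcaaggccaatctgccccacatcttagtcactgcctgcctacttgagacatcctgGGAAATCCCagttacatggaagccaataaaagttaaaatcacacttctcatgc
The Tnfaip3 stretch holds 2 matches and the Tnip3 stretch 1.

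Early transcription factors were divided. In the list of AP-1, EGR and other early factors, 11 of 28 tested members rose and 12 fell (median log2 fold change 0.038). Nr4a1, an orphan nuclear receptor, was at 187, 163 and 181 CPM in MOPS against 47.5, 46.1 and 46.4 CPM in HEPES (log2 fold change 1.92 ± 0.11, adjusted p = 1.33e-07). Atf3, a stress-induced repressor, was at 282, 319.8 and 305 CPM in MOPS against 117, 137 and 146 CPM in HEPES (1.18 ± 0.061), and Fos at 24.7, 23.1 and 27.8 CPM in MOPS against 8.33, 10.7 and 11.2 CPM in HEPES (1.32 ± 0.093). Jun (0.85 ± 0.047), Fosl1 (0.61 ± 0.068), Batf (0.79 ± 0.092) and Egr1 (0.48 ± 0.053) rose as well, although Fosl1 overlaps Ccdc85b. Cebpd, a C/EBP factor of late LPS genes that overlaps Spidr, was at 26.1, 25.9 and 28.1 CPM in MOPS against 80.8, 69.6 and 69 CPM in HEPES (-1.46 ± 0.063), and Klf6 fell (-0.75 ± 0.04). The letters TGANTCA, the AP-1 site, were in 11.1% of promoters of genes called lower by at least 2-fold, in 7.68% of those called higher by at least 2-fold and in 5.0% of all. With no minimum fold the shares were 5.79% for lower and 4.98% for higher genes.

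MAP kinase phosphatases, which end MAP kinase signalling, were more often lower: 2 of 11 tested members rose and 7 fell (median log2 fold change -0.34). Dusp16, which acts on JNK, was at 131, 123 and 125 CPM in MOPS against 258, 243 and 242 CPM in HEPES (-0.97 ± 0.05), and Dusp6, which acts on ERK, at 66.2, 68.6 and 74.1 CPM in MOPS against 28.6, 28.6 and 29.6 CPM in HEPES (1.27 ± 0.058). Dusp5, another ERK phosphatase, rose with Dusp6 (0.71 ± 0.072). Among regulators of cytokine mRNA decay 3 of 12 rose and 4 fell, close to the 26.9% of all tested genes in each direction. Their median log2 fold change of -0.0518 turned positive with scaling by total counts (0.0408). Zfp36, tristetraprolin, rose (0.83 ± 0.044) and Zc3h12a, regnase-1, fell (-0.55 ± 0.044). In the list of SOCS and JAK-STAT genes 3 of 19 tested members rose and 9 fell (median log2 fold change -0.17). Cish was at 114, 106 and 116 CPM in MOPS against 353, 363 and 337 CPM in HEPES (log2 fold change -1.65 ± 0.049, adjusted p = 2.54e-22) and Jak2 at 799, 724 and 736 CPM in MOPS against 1522, 1424 and 1366 CPM in HEPES (-0.93 ± 0.042). Stat5a (-1.31 ± 0.056) also fell, but it overlaps Stat3.

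Secreted cytokines were unequally affected. Tnf was at 8490, 8078 and 7985 CPM in MOPS against 8282, 9324 and 9311 CPM in HEPES, and the groups overlapped (log2 fold change -0.13 ± 0.063, adjusted p = 0.0941). The small decrease of Tnf passed in 4 of the alternative settings, with -0.119 (adjusted p = 0.00736) without a filter on low counts and -0.126 (adjusted p = 0.0267) in a fit of the 6 LPS-treated libraries alone, and with -0.203 (adjusted p = 0.0231) without library 7 and -0.228 (adjusted p = 0.00193) without library 10. Il1b was at 6841, 5550 and 6053 CPM in MOPS against 11688, 12057 and 11687 CPM in HEPES (log2 fold change -0.94 ± 0.14, adjusted p = 3.79e-04), Il1a fell alike (-0.91 ± 0.05), and Il6 was at 575, 538 and 533 CPM in MOPS against 1028, 1245 and 1107 CPM in HEPES (log2 fold change -1.04 ± 0.12, adjusted p = 5.45e-05). DESeq2 gave Il6 a log2 fold change of -1.05 with an adjusted p of 0.129. Il12b, the p40 subunit shared by IL-12 and IL-23, was at 25.5, 31.7 and 35.1 CPM in MOPS against 119, 137 and 118 CPM in HEPES (log2 fold change -2.02 ± 0.10, adjusted p = 2.41e-09). Il10, which restrains inflammation, was at 22.1, 13 and 15.8 CPM in MOPS against 25.7, 23.1 and 21.7 CPM in HEPES (adjusted p = 0.0499), where the highest MOPS library lay above the lowest HEPES library, and the call was lost with DESeq2, with total-count scaling, in the fit of the 6 LPS-treated libraries alone and without library 8, 9, 10 or 11 (adjusted p = 0.0708 to 0.132). Of the IL-1 family and inflammasome list 5 of 19 tested members rose and 10 fell (median log2 fold change -0.51), with Nlrp3 lower (-0.51 ± 0.04) and Nlrc4 (0.88 ± 0.072) higher. Of the gp130 cytokines 1 of 10 tested members rose and 8 fell (median log2 fold change -0.44), the one increase being Clcf1 (0.64 ± 0.054), and of the IL-12, IL-23 and IL-10 families 0 of 10 tested members rose and 7 fell (median log2 fold change -0.61).

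Chemokines differed by type. Of the CC chemokines, 0 of 10 tested members rose and 6 fell (median log2 fold change -0.39). Ccl3 was at 1343, 1396 and 1309 CPM in MOPS against 1973, 2236 and 2261 CPM in HEPES (-0.68 ± 0.051), while Ccl5 (0.0089, adjusted p = 0.921) and Ccl9 (-0.034, adjusted p = 0.778) did not pass; without library 10 Ccl9 passed (-0.177, adjusted p = 0.00409). The CXC chemokines had both directions, as 4 of 10 tested members rose and 3 fell (median log2 fold change -0.16), or 4 and 5 with RLE scaling. Cxcl5, a neutrophil attractant, was at 31.3, 24.3 and 23.8 CPM in MOPS against 8.82, 8.51 and 8.07 CPM in HEPES (1.64 ± 0.11), and Cxcl13, a B cell attractant that resident peritoneal macrophages make, at 9.82, 7.24 and 7.83 CPM in MOPS against 55.1, 49.8 and 38.3 CPM in HEPES (-2.53 ± 0.13). The abundant Cxcl1 fell little (-0.27 ± 0.049), and Cxcl2 (-0.19, adjusted p = 0.0559) did not pass, although DESeq2 called it lower (adjusted p = 0.00475), as did edgeR without library 7 (-0.344) or 10 (-0.285).

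Growth factors and vascular factors changed in both directions. In the list of colony-stimulating and growth factors 5 of 20 tested members rose and 11 fell (median log2 fold change -0.32). Gdf15, a stress-induced cytokine, was at 1033, 1057 and 988 CPM in MOPS against 217, 239 and 249 CPM in HEPES (log2 fold change 2.13 ± 0.05, adjusted p = 4.68e-22), and Vegfa, the angiogenic factor, at 526, 495 and 464 CPM in MOPS against 307, 299 and 284 CPM in HEPES (0.74 ± 0.043). Pdgfb fell (-1.07 ± 0.05). Both directions also appeared among clotting, fibrinolysis and vascular factors, where 7 of 19 tested members rose and 10 fell (median log2 fold change -0.46). Procr, the endothelial protein C receptor, was at 414, 364 and 363 CPM in MOPS against 134, 127 and 136 CPM in HEPES (1.52 ± 0.049). Vcam1 fell (-1.82 ± 0.097), while F5 (0.70 ± 0.04), F7 (0.36 ± 0.043) and F3, tissue factor (0.58 ± 0.083), rose.

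Lipid mediator genes were more often higher: 10 of 17 tested members rose and 3 fell (median log2 fold change 0.29). Alox5, 5-lipoxygenase, was at 72.7, 65.5 and 68.8 CPM in MOPS against 35.1, 30 and 27.6 CPM in HEPES (1.16 ± 0.066), and Pla2g4a (0.96 ± 0.052), which frees arachidonic acid, and Ptgs1 (1.16 ± 0.084), the constitutive cyclooxygenase, rose. Ptgs2, the inducible cyclooxygenase, was at 2023, 1529 and 1538 CPM in MOPS against 3176, 3164 and 3048 CPM in HEPES (log2 fold change -0.88 ± 0.12, adjusted p = 2.69e-04). The 2 cyclooxygenases thus changed in opposite directions. Hpgds, prostaglandin D synthase, fell (-1.01 ± 0.09).

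Interferon-stimulated genes were lower almost as a block. 1 of 30 tested members rose and 27 fell (median log2 fold change -0.97), against 26.9% of all tested genes in each direction, and 14 fell by at least 2-fold. Without LPS the list was also lower in MOPS, as 0 members rose and 24 fell (median log2 fold change -0.771). Gbp7, a guanylate-binding protein, was at 26.3, 33.4 and 31.6 CPM in MOPS against 75.2, 78.4 and 68.4 CPM in HEPES (log2 fold change -1.28 ± 0.076, adjusted p = 3.82e-13). Oas2, a sensor of double-stranded RNA, was at 2.47, 2.08 and 1.65 CPM in MOPS against 9.63, 7.61 and 6.62 CPM in HEPES (-1.94 ± 0.18), and Xaf1 at 3.80, 3.12 and 4.52 CPM in MOPS against 13.8, 12 and 9.07 CPM in HEPES (-1.61 ± 0.15). Trim30a fell less (-0.58 ± 0.054). Oasl1 was the only increase, at 166, 156 and 151 CPM in MOPS against 87.2, 69 and 63.9 CPM in HEPES (log2 fold change 1.10 ± 0.10, adjusted p = 5.36e-06).

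Promoters of this list are printed because the interferon response letters GAAANNGAA were in 17 of its 23 promoters that matched. They were in 7.23% of all promoters, in 11.1% of those of genes lower by at least 2-fold and in 7.01% of those higher by at least 2-fold. Among genes called by any fold the shares were 8.55% for lower and 5.66% for higher, and genes not called had 7.39%. By the same choice, shown are the 250 bases before the start of the 3 called members with the motif that fell most, from RefSeq (GRCm38.p6), with every match in capitals. Overlapping matches form one run of capitals. Ifit3 (chr19:34583279-34583528, forward strand) was at 0.566, 0.236 and 0.386 CPM in MOPS against 3.21, 2.45 and 1.33 CPM in HEPES (-2.56 ± 0.43). Oas1g (chr5:120887614-120887863, reverse strand), which has near-identical paralogs, was at 3.86, 2.18 and 2.92 CPM in MOPS against 11.4, 8.46 and 8.40 CPM in HEPES (-1.67 ± 0.21), and Oas3 (chr5:120777660-120777909, reverse strand) at 1.49, 1.23 and 2.15 CPM in MOPS against 4.79, 4.58 and 3.84 CPM in HEPES (-1.45 ± 0.25). The 3 genes were low in every library, and no MOPS library reached the lowest HEPES library.
Ifit3: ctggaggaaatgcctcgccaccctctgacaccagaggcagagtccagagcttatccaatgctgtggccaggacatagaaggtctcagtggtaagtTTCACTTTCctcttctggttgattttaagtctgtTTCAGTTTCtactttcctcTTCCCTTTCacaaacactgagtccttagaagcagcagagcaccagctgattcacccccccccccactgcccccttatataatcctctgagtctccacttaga
Oas1g: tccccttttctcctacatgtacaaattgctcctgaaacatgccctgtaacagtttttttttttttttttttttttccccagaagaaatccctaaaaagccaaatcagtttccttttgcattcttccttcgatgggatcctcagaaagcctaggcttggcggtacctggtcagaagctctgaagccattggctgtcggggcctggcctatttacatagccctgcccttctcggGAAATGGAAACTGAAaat
Oas3: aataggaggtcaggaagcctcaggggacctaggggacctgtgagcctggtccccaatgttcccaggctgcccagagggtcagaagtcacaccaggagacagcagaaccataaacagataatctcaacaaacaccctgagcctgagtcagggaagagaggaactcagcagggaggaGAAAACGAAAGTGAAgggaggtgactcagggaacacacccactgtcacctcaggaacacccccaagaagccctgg
The Ifit3 stretch holds 3 matches, and the Oas1g and Oas3 stretches hold 2 each. A match of letters is a description and not a site of binding. Promoters of genes higher by at least 2-fold had a mean GC content of 59.3%, those of genes lower by at least 2-fold 56.9%, and all promoters 60.7%.

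Interferon regulatory factors and receptors changed in both directions, since 7 of 12 tested members rose and 5 fell (median log2 fold change 0.24). Irf8 rose (0.74 ± 0.057), and Irf4, which shapes alternative activation, was at 25.8, 24.8 and 27.1 CPM in MOPS against 53.5, 65 and 62.1 CPM in HEPES (-1.22 ± 0.073). Of genes for contact with T cells, 4 of 13 tested members rose and 8 fell (median log2 fold change -0.31). Cd80 was at 71.5, 65.7 and 66.8 CPM in MOPS against 249, 250.3 and 236 CPM in HEPES (log2 fold change -1.85 ± 0.052, adjusted p = 7.49e-23), and Cd83 at 249, 252 and 289 CPM in MOPS against 617, 662 and 615 CPM in HEPES (-1.26 ± 0.05). The inhibitory ligand Vsir was at 191, 209 and 222 CPM in MOPS against 77.5, 82.2 and 87.9 CPM in HEPES (1.33 ± 0.049), and Cd274, which encodes PD-L1, rose slightly (0.25 ± 0.046). Of the genes of MHC presentation 3 of 16 tested members rose and 9 fell (median log2 fold change -0.22), or 5 and 6 with scaling by total counts, with the class I transactivator Nlrc5 at 16.3, 12.6 and 15.1 CPM in MOPS against 30.3, 27.9 and 30.3 CPM in HEPES (-1.01 ± 0.084). B cells also express class II genes, and their markers were higher in MOPS as given above; their part here was not tested. H2-K1 (0.02, adjusted p = 0.698) did not pass.

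Complement was lower: 2 of 18 tested members rose and 13 fell (median log2 fold change -0.45). C1qb was at 292, 248 and 277 CPM in MOPS against 876, 815 and 779 CPM in HEPES (log2 fold change -1.60 ± 0.059, adjusted p = 1.28e-13) and C1qc at 206, 167 and 193 CPM in MOPS against 673, 619 and 596 CPM in HEPES (-1.74 ± 0.066). C1qa, the other chain of C1q, fell with them (-1.48), and was named here after its values were seen. Cd55, a membrane inhibitor, rose (0.80 ± 0.23; adjusted p = 0.0648 without library 8). The chains that start the classical pathway and this inhibitor thus moved in opposite directions.

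Surface receptors for uptake and recognition changed in both directions. Among Fc and C-type lectin receptors 9 of 16 tested members rose and 5 fell (median log2 fold change 0.35). Clec12a, an inhibitory receptor for uric acid crystals, was at 43.3, 44.7 and 51.8 CPM in MOPS against 188, 213 and 198 CPM in HEPES (-2.10 ± 0.073), and Clec5a at 45, 42.9 and 46.8 CPM in MOPS against 122, 136 and 144 CPM in HEPES (-1.58 ± 0.066), both opposite to Clec4n. Clec7a, dectin-1, rose (0.59 ± 0.039). Of scavenger and apoptotic cell receptors 8 of 20 tested members rose and 10 fell (median log2 fold change -0.041), a median that turned positive with scaling by total counts. Mertk, a receptor for dying cells, was at 121, 136 and 131 CPM in MOPS against 66, 61.8 and 61.9 CPM in HEPES (1.03 ± 0.05), its ligand Gas6 at 20.4, 19.3 and 19 CPM in MOPS against 65.8, 61.9 and 59.4 CPM in HEPES (-1.67 ± 0.057) and Marco at 1110, 955 and 894 CPM in MOPS against 459.8, 360.2 and 356 CPM in HEPES (1.33 ± 0.14). The receptor and its ligand changed in opposite directions. Of purine and metabolite receptors 3 of 17 tested members rose and 10 fell (median log2 fold change -0.43): Gpr84, a fatty acid receptor, was at 434, 364 and 394 CPM in MOPS against 945, 864 and 898 CPM in HEPES (-1.19 ± 0.062), P2rx7, the ATP-gated channel, rose (1.05 ± 0.046), and Nt5e, which makes adenosine, was at 119.9, 104 and 113 CPM in MOPS against 47.4, 37.4 and 40.7 CPM in HEPES (1.42 ± 0.13).

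Genes of macrophage identity split. For large peritoneal macrophages, 7 of 21 tested members rose and 9 fell (median log2 fold change -0.02), and the sign of this median flipped with scaling by total counts. Gata6 was at 53.2, 42.9 and 48.2 CPM in MOPS against 134, 135 and 132 CPM in HEPES (log2 fold change -1.47 ± 0.054, adjusted p = 2.27e-20), and Timd4, a receptor for dying cells, at 31.1, 25.7 and 27.8 CPM in MOPS against 113, 101 and 89.7 CPM in HEPES (-1.84 ± 0.11). Prg4, a lubricating proteoglycan that overlaps Tpr, was at 776, 743 and 709 CPM in MOPS against 336, 351 and 359 CPM in HEPES (1.09 ± 0.041), Ltbp1 rose (1.09 ± 0.044), and Naip1, a sensor of bacterial needle proteins, was at 32.8, 41 and 40.2 CPM in MOPS against 7.35, 9.31 and 9.85 CPM in HEPES (2.10 ± 0.12). The retinoid receptors Rxra (0.91 ± 0.046) and Rarg (0.79 ± 0.073) rose. Of the genes of alternative activation 3 of 16 tested members rose and 10 fell (median log2 fold change -0.45), Clec10a (1.96 ± 0.12) and Cd163 (1.12 ± 0.11) being among the increases. In arginine metabolism 5 of 17 tested members rose and 9 fell (median log2 fold change -0.18). Nos2, the inducible nitric oxide synthase, was at 4.52, 2.70 and 4.52 CPM in MOPS against 18.9, 18 and 14 CPM in HEPES (-2.13 ± 0.19), opposite to Arg1, and Ass1, which recycles citrulline, at 166, 129 and 120.4 CPM in MOPS against 76.6, 57.9 and 72.6 CPM in HEPES (1.0 ± 0.14).

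Lipid storage and uptake genes were more often higher. In the list of lipid droplets, lipases and uptake 11 of 19 tested members rose and 6 fell (median log2 fold change 0.56). Plin2, a coat protein of droplets, was at 1071, 1181 and 1213 CPM in MOPS against 393, 382 and 356 CPM in HEPES (1.61 ± 0.043), and Pnpla2, the first lipase of stored fat, at 116, 123 and 129 CPM in MOPS against 41.3, 44.2 and 40.3 CPM in HEPES (1.55 ± 0.051). The fatty acid binding proteins Fabp3 (-1.50 ± 0.057), which overlaps Zcchc17, Fabp4 (-0.60 ± 0.042) and Fabp5 (-0.48 ± 0.038) fell. Fatty acid oxidation genes mostly rose, as 23 of 30 tested members rose and 1 fell (median log2 fold change 0.75), 6 of them by at least 2-fold. Acadl was at 201, 215 and 215 CPM in MOPS against 78.1, 77.2 and 72.1 CPM in HEPES (1.47 ± 0.048), Cpt1a, the gate of mitochondrial import, at 246, 254 and 263 CPM in MOPS against 137, 127 and 125 CPM in HEPES (0.98 ± 0.044), and Acaa2 at 40.1, 42.2 and 45.2 CPM in MOPS against 16.3, 18 and 15.4 CPM in HEPES (1.36 ± 0.067).

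Cholesterol synthesis and uptake genes were lower: 1 of 24 tested members rose and 21 fell (median log2 fold change -1.45), and 17 fell by at least 2-fold. Sqle, the squalene epoxidase, was at 7.82, 6.72 and 6.67 CPM in MOPS against 41.3, 39 and 44.1 CPM in HEPES (log2 fold change -2.55 ± 0.09, adjusted p = 4.01e-20), and Hmgcs1 at 47.3, 43.6 and 45.5 CPM in MOPS against 114, 118 and 126 CPM in HEPES (-1.39 ± 0.051). Among LXR targets and genes of lipogenesis 5 of 14 tested members rose and 7 fell (median log2 fold change -0.18). Mylip, which degrades the LDL receptor, was at 191, 196 and 181 CPM in MOPS against 73, 67.3 and 71.6 CPM in HEPES (1.42 ± 0.046), Abcg1 (0.50 ± 0.061) and Abca1 (0.25 ± 0.047), which export cholesterol, rose, and Apoe (-0.73 ± 0.043) and Fasn (-1.30 ± 0.067) fell. Targets of the same receptor therefore had both signs.

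Heme, iron and redox genes were higher. Of heme and iron genes 13 of 16 tested members rose and 3 fell (median log2 fold change 0.48). Blvrb (1.14 ± 0.04), a biliverdin reductase, and the heme transporter Slc48a1 (1.18 ± 0.038) rose with Hmox1, and the iron importers Slc11a2 (-0.25 ± 0.045) and Tfrc (-0.13 ± 0.049) fell slightly, Tfrc by -0.033 (adjusted p = 0.605) with scaling by total counts and by -0.0959 (adjusted p = 0.139) without library 9. Of the NRF2, glutathione and thioredoxin genes 20 of 24 tested members rose and 1 fell (median log2 fold change 0.77), 11 rising by at least 2-fold. Prdx6 was at 529, 518 and 539 CPM in MOPS against 120.2, 119.5 and 119 CPM in HEPES (log2 fold change 2.14 ± 0.039, adjusted p = 9.74e-28), Gclm, a subunit of the enzyme that starts glutathione synthesis, at 707, 749.6 and 748 CPM in MOPS against 224, 233 and 246 CPM in HEPES (1.65 ± 0.04), and Gsr, glutathione reductase, at 461, 450 and 435 CPM in MOPS against 195, 202 and 197 CPM in HEPES (1.18 ± 0.037). The 3 genes did not overlap between groups. The letters TGACNNNGC, the core of the antioxidant response element, were in 7 of 21 promoters of this list and in 15.1% of all promoters, and their share was 15% among genes higher by at least 2-fold and 14.2% among those lower by at least 2-fold.

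Carbon metabolism was more often higher than lower. In the pentose phosphate pathway, which makes NADPH, 8 of 10 tested members rose and 0 fell (median log2 fold change 0.40). Taldo1 was at 942, 952 and 956 CPM in MOPS against 317, 329 and 337 CPM in HEPES (1.54 ± 0.036) and Pgd at 1267, 1272 and 1262 CPM in MOPS against 586, 604 and 637 CPM in HEPES (1.06 ± 0.037). In the list of the pyruvate gate and glycolysis 19 of 33 tested members rose and 7 fell (median log2 fold change 0.27). Eno1 (0.77 ± 0.039) and Pgk1 (0.71 ± 0.04) rose, but the glucose transporter Slc2a6 (-0.84 ± 0.044) and Hk2, which traps glucose in the cell, fell, Hk2 from 691, 629 and 622 CPM in HEPES to 358, 306 and 318 CPM in MOPS (-0.98 ± 0.053). Slc2a1 was at 377, 362 and 349 CPM in MOPS against 276, 302 and 329 CPM in HEPES (log2 fold change 0.26 ± 0.087, adjusted p = 0.0257), and its call was lost without library 7, 8, 10 or 11 (adjusted p = 0.111 to 0.156). Among citric acid cycle genes 9 of 23 tested members rose and 1 fell (median log2 fold change 0.091), whereas 19 rose and 1 fell with scaling by total counts (median 0.184), and Idh1, a cytosolic source of NADPH, stood out at 247, 271 and 259 CPM in MOPS against 91.6, 103 and 98.3 CPM in HEPES (1.41 ± 0.044). Acod1, which makes itaconate, was at 6601, 6208 and 6498 CPM in MOPS against 7226, 7308 and 7128 CPM in HEPES (log2 fold change -0.17 ± 0.1, adjusted p = 0.198), and its groups did not overlap although it did not pass. In a fit of the 6 LPS-treated libraries alone Acod1 passed (-0.159, adjusted p = 0.00191).

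The count of respiratory chain genes depended on the scaling. Of nuclear genes 8 of 30 tested members rose and 6 fell (median log2 fold change 0.049), each share being near or below that of all genes, and with scaling by total counts 16 rose and 4 fell (median 0.141). Of mitochondrial genome transcripts 0 of 13 tested members rose and 6 fell (median log2 fold change -0.21), mt-Nd1 falling most clearly (-0.40 ± 0.043). Among hypoxia targets 13 of 20 tested members rose and 5 fell (median log2 fold change 0.60). Bnip3l (0.87 ± 0.046) and Vhl (0.98 ± 0.057) rose, and Ndrg1 fell from 45.9, 50.2 and 48.4 CPM in HEPES to 8.43, 8.09 and 8.65 CPM in MOPS (-2.52 ± 0.084). The list therefore did not move as one.

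Clock genes were more often higher. 12 of 16 tested members rose and 4 fell (median log2 fold change 0.93), and 5 rose by at least 2-fold. Per2, a repressor of the clock, was at 47.5, 45.8 and 46.9 CPM in MOPS against 11.7, 11 and 11 CPM in HEPES (log2 fold change 2.06 ± 0.071, adjusted p = 4.77e-21). Tef, an output factor that binds D-boxes, was at 62.1, 64.5 and 62.6 CPM in MOPS against 22.5, 17.9 and 21.5 CPM in HEPES (1.61 ± 0.067), and Nr1d2, which encodes REV-ERB beta, at 122, 123 and 117 CPM in MOPS against 65.8, 63.7 and 63.6 CPM in HEPES (0.91 ± 0.045). Nr1d1, its paralog, rose as well (1.63 ± 0.088), but it overlaps Thra on the other strand. The decreases were Arntl, the activator BMAL1, at 12.6, 12.4 and 10.9 CPM in MOPS against 21.1, 23.2 and 27 CPM in HEPES (-0.98 ± 0.094), Nfil3, which competes with Tef at D-boxes (-0.88 ± 0.056), Rora (-0.34 ± 0.065) and Bhlhe40 (-0.30 ± 0.042).

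Lysosome and autophagy genes had members in both directions. Of the subunits of lysosomal acidification 1 of 21 tested members rose and 11 fell (median log2 fold change -0.11). With scaling by total counts 5 rose and 7 fell (median -0.0205), and with RLE scaling or DESeq2 0 rose and 12 fell. Atp6v1d was at 96.7, 97.2 and 100 CPM in MOPS against 127, 129.7 and 136 CPM in HEPES (-0.42 ± 0.043), and Mcoln1 alone was called higher (0.10 ± 0.043), a call lost in most other settings, leaving out any 1 library with LPS among them (adjusted p = 0.0855 to 0.601). The lysosomal hydrolases and membrane proteins were divided, as 12 of 32 tested members rose and 14 fell (median log2 fold change -0.071), a median that turned positive with scaling by total counts. Scarb2, the carrier of glucocerebrosidase, was at 452, 453 and 456 CPM in MOPS against 155, 155 and 152 CPM in HEPES (1.56 ± 0.038), and Tfeb, a transcription factor of lysosomal genes, at 13.5, 15.4 and 15.4 CPM in MOPS against 7.78, 7.50 and 7.79 CPM in HEPES (0.94 ± 0.085). Of autophagy genes 12 of 22 tested members rose and 7 fell (median log2 fold change 0.17), with the starter kinase Ulk1 at 59.9, 71.2 and 66.3 CPM in MOPS against 22, 20.1 and 21.6 CPM in HEPES (1.63 ± 0.061) and the cargo receptor Sqstm1 higher (0.66 ± 0.036). Of proteasome genes 15 of 29 tested members rose and 3 fell (median log2 fold change 0.099).

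ER, amino acid and ribosome-making genes were more often lower. Of ER chaperones and the unfolded protein response 3 of 21 tested members rose and 12 fell (median log2 fold change -0.14). Hspa5, the chaperone BiP, was at 7749, 7410 and 7367 CPM in MOPS against 12589, 12228 and 11586 CPM in HEPES (log2 fold change -0.69 ± 0.037, adjusted p = 2.32e-16), and Herpud1, of ER-associated degradation, at 408, 412 and 413 CPM in MOPS against 842, 821 and 781 CPM in HEPES (-0.99 ± 0.037). Of the ATF4 list 5 of 26 tested members rose and 17 fell (median log2 fold change -0.32). Asns, asparagine synthetase, was at 25, 23.8 and 25.6 CPM in MOPS against 75.4, 71.5 and 75.1 CPM in HEPES (-1.58 ± 0.061), and the amino acid transporter Slc7a5 at 28.9, 25.4 and 29.8 CPM in MOPS against 68.3, 64.3 and 69.5 CPM in HEPES (-1.27 ± 0.065). No MOPS library reached the HEPES libraries in these 4 genes. Of ribosome biogenesis genes 3 of 24 tested members rose and 15 fell (median log2 fold change -0.26), Nop58 falling (-0.51 ± 0.046) and Polr1e rising (0.71 ± 0.12). Of cytosolic ribosomal proteins 11 of 30 tested members rose and 2 fell (median log2 fold change 0.03), but with scaling by total counts 23 rose and 1 fell, and with RLE scaling 9 rose and 3 fell.

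Survival genes had both directions, and most cell cycle genes were not called. Of the BCL2 family 7 of 16 tested members rose and 8 fell (median log2 fold change -0.028), a median whose sign flipped with scaling by total counts. Bcl2l11, the death-promoting BIM, was at 349, 344 and 327 CPM in MOPS against 173, 185 and 177 CPM in HEPES (0.93 ± 0.043), and Mcl1, which protects, fell (-0.37 ± 0.035). Of cell cycle and replication genes 4 of 25 tested members rose, 5 fell and 16 were not called (median log2 fold change 0.043). Both shares were below the 26.9% of all tested genes in each direction. With scaling by total counts 7 rose and 4 fell. Of the genes of cAMP signalling 10 of 23 tested members rose and 6 fell (median log2 fold change 0.15), with the phosphodiesterases Pde4d (1.60 ± 0.097) and Pde3b (1.05 ± 0.048) higher. The letters TGACGTCA, the cAMP response element, were in 0.835% of promoters of genes higher by at least 2-fold, in 2.59% of those lower by at least 2-fold and in 3.24% of all, and in 2.74% of those higher by any fold. Other motifs were also searched. Sterol regulatory letters TCACNCCAC were in 1 of 17 cholesterol promoters and 1.06% of all. PPAR letters GGNCAAAGG were in 1 of 26 fatty acid oxidation promoters and 1.92% of all. CLEAR letters CACGTGAC were in 4 of 26 promoters of lysosomal hydrolases and membrane proteins and 4.26% of all. Amino acid response letters TTGCATCA were in 4 of 21 promoters of the ATF4 list and 0.61% of all.

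**Figure D3:**
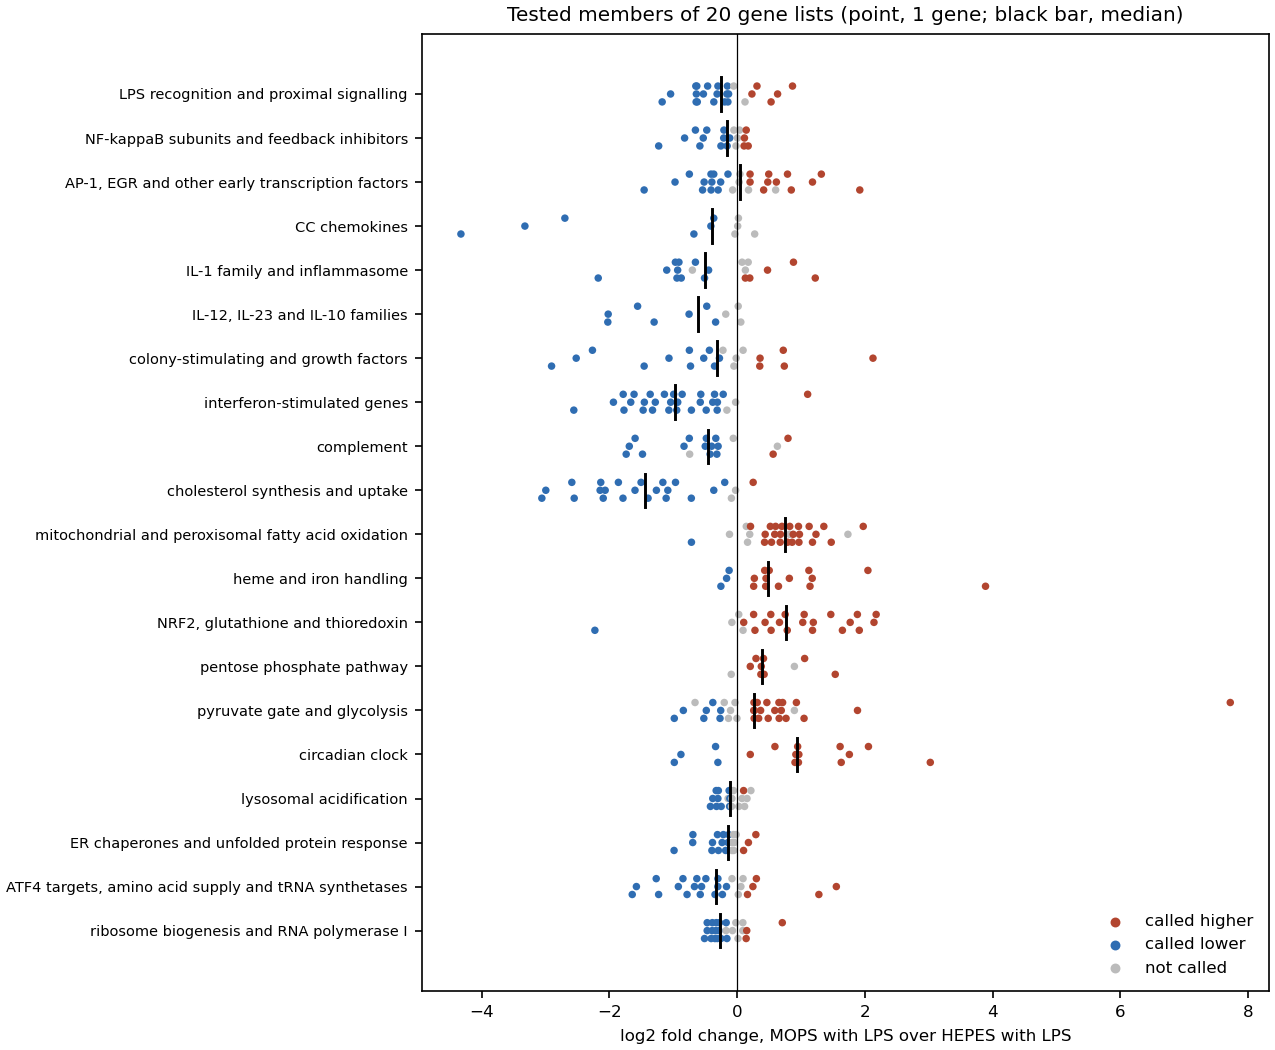
Log2 fold change of MOPS with LPS over HEPES with LPS for the tested members of 20 gene lists, with 1 point for each gene, a black bar for the median of the list, and red, blue and grey for called higher, called lower and not called. Fatty acid oxidation, NRF2 and clock genes lie mostly to the right, and cholesterol, interferon and complement genes mostly to the left.

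The medium difference in LPS-treated cells was then set against that in untreated cells, which used the other 6 libraries. Without LPS 3518 genes (24.3%) were higher in MOPS and 3687 (25.4%) lower. The test of the difference itself, an interaction term in the same fit, called 3173 genes (21.9%) more positive with LPS and 2546 (17.6%) more negative. Scaling by total counts moved these to 3891 and 1972, which is 66.37% more positive against 55.48%. The majority turned over with RLE scaling (2783 and 2899, 48.98% more positive), with DESeq2 (2584 and 2732, 48.61%) and without library 7, 8, 10, 11 or 12 (46.85% to 47.43%), so that neither direction was the more frequent across settings. Of the 3904 genes higher with LPS, 2004 were also higher without it, 412 were lower and 1488 were not called. Of the 3897 lower with LPS, 1850 were also lower without it, 529 were higher and 1518 were not called. All 412 and all 529 genes with opposite calls passed the interaction test, which opposite calls in the same fit make nearly certain.

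Several signalling genes differed between the media with LPS and much less, or the other way, without it. Bcl6, a repressor of inflammatory genes, was at 51.1, 51.9 and 52.7 CPM in MOPS and 51.4, 50.8 and 56 CPM in HEPES without LPS, and at 48.3, 52.5 and 40.7 CPM in MOPS against 10.7, 9.58 and 9.46 CPM in HEPES with it (interaction 2.28 ± 0.11, adjusted p = 1.22e-15). The groups therefore met without LPS and lay apart with it. Tent5c, a poly(A) polymerase, was at 35.7, 34.6 and 32.6 CPM in MOPS and 72.8, 70.2 and 55.3 CPM in HEPES without LPS and at 47.6, 63.8 and 54.6 CPM in MOPS against 14.3, 17.5 and 21 CPM in HEPES with it (interaction 2.61 ± 0.23). Here the order of the media turned over. Gpr65 also turned over, from 23.8, 23.4 and 21.1 CPM in MOPS and 44.4, 44.9 and 39.8 CPM in HEPES without LPS to the higher level in MOPS given above (interaction 2.16 ± 0.12). In these 3 genes the levels with LPS in HEPES were below those without LPS.

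Other genes went from higher in MOPS without LPS to lower in MOPS with LPS. Ptgs2 was at 8.26, 9.46 and 7.62 CPM in MOPS and 1.65, 3.42 and 2.21 CPM in HEPES without LPS, which is the reverse of its order with LPS (interaction -2.69 ± 0.32, adjusted p = 1.57e-04). Noct, a phosphatase of NADP cofactors with a daily rhythm, was at 5.30, 6.13 and 5.42 CPM in MOPS and 1.72, 1.54 and 1.47 CPM in HEPES without LPS and at 73.4, 73.1 and 77 CPM in MOPS against 128, 125 and 117 CPM in HEPES with it (interaction -2.56 ± 0.13). Plpp3 (interaction -1.79 ± 0.078), a lipid phosphatase, Penk (interaction -3.28 ± 0.29), the enkephalin precursor, and Ggct (interaction -1.94 ± 0.14), of glutathione turnover, did the same.

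Gene lists showed the same difference in counts. Of the 24 genes of LPS recognition and proximal signalling, 1 was more positive and 14 more negative with LPS in the interaction test, against 21.9% and 17.6% of all tested genes. The corresponding counts were 1 and 12 of 19 for NF-kappaB genes, 1 and 18 of 21 for ER chaperones and the unfolded protein response, 4 and 17 of 26 for ATF4 genes, and 1 and 16 of 24 for ribosome biogenesis. Lysosomal hydrolases went the other way, with 26 of 32 more positive and 0 more negative, and cholesterol genes too, with 16 of 24 and 0. With RLE scaling, total-count scaling or DESeq2 the more frequent direction of each of these 7 lists was the same; LPS recognition had 4 and 12 with total-count scaling, ribosome biogenesis 1 and 12 with total-count scaling and 1 and 19 with RLE scaling, and lysosomal hydrolases 21 and 2 with RLE scaling. For cholesterol genes this is a smaller decrease, from a median of -1.91 without LPS to -1.45 with it. The ER list had a median of 0.169 without LPS and -0.142 with it, and ribosome biogenesis of 0.172 and -0.264. Other lists had the same more frequent direction with and without LPS, although each had members that passed the interaction test. Without LPS 20 of the NRF2 genes were higher in MOPS and 3 lower (median 0.821). Of the clock genes 11 were higher and 3 lower (0.733), and of the fatty acid oxidation genes 22 and 3 (0.509). Complement had 1 higher and 13 lower without LPS (median -0.587), and interferon-stimulated genes 0 and 24 (-0.771). The comparisons with and without LPS share no library. In the interaction test 13 of 24 NRF2 genes were more positive with LPS and 8 more negative. These counts were 6 and 4 of 16 for clock genes and 10 and 4 of 30 for fatty acid oxidation. For complement they were 7 and 0 of 18, and for interferon-stimulated genes 6 and 10 of 30.

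**Figure D4:**
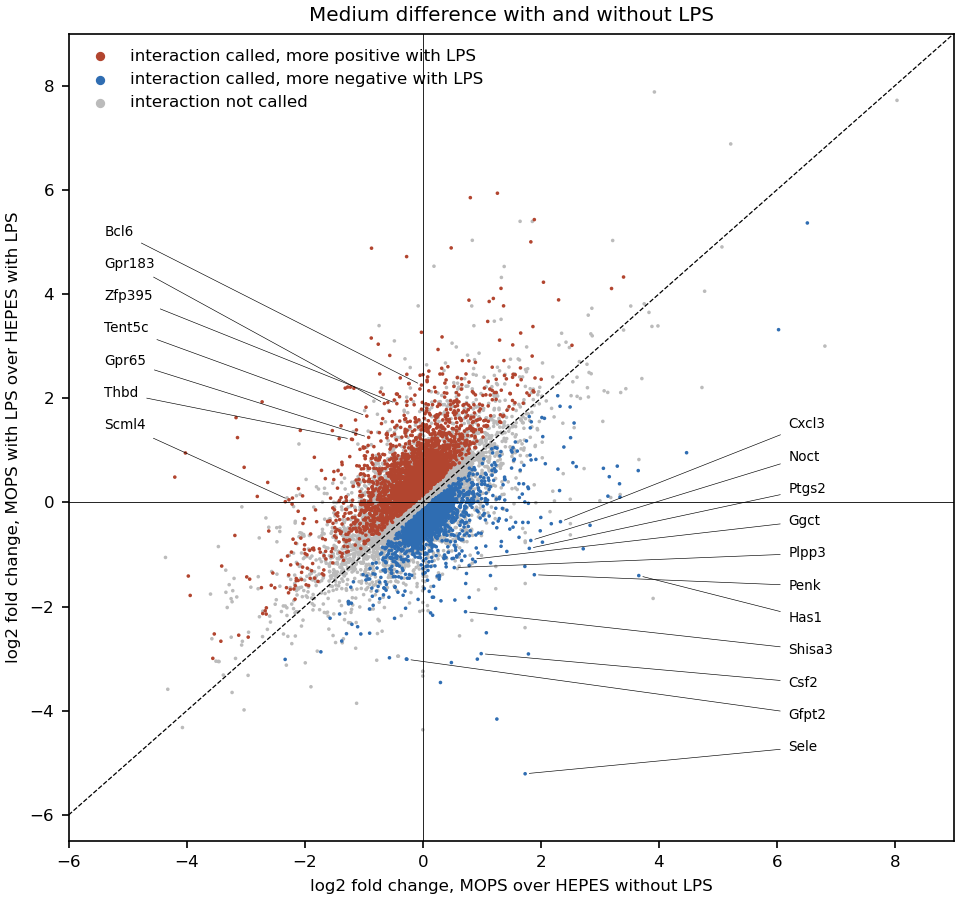
Log2 fold change of MOPS over HEPES with LPS (vertical) against that without LPS (horizontal) for every tested gene, with the dashed line marking equal values and red or blue marking genes that passed the interaction test. Bcl6 lies near 0 without LPS and well above it with LPS, whereas Tent5c and Gpr65 lie below 0 without LPS and above it with LPS. Sele and Csf2 lie far below the line, but their horizontal positions rest on few counts without LPS.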

How the data were processed

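RNA-seq was made from 12 libraries of mouse peritoneal macrophages, 3 in each of 4 groups. Per the file headers, the table that was deposited gives a raw count for each gene, in whole numbers summing to 20114613 to 24734853 per library, and FPKM values, which the authors made by dividing each count by gene length and a constant of its library (checked). Columns with other units hold the authors' deposited log2 fold changes and p-values. The submitters' processing notes name CASAVA 1.8, HISAT2 2.0.5, featureCounts 1.5.0-p3 and mm10. The strand setting is not given in the sources used here.

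Counts were fitted in R 4.3.3 with edgeR 4.0.16: filterByExpr, TMM scaling, and 1 mean per group, with the robust quasi-likelihood option, over all 12 libraries (8 residual degrees of freedom). Contrasts were MOPS with LPS over HEPES with LPS, the same without LPS, and their difference (the interaction), with p-values adjusted by Benjamini-Hochberg over 14506 genes and calls at 0.05. Standard errors were derived from the log2 change and its F statistic. The fit was tested on simulated data. The common biological coefficient of variation was 4.62%, and within groups, pairs of libraries had a chi-square of 2.66 to 6.54 for each degree of freedom, above counting error.

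The comparison, its 53 gene lists and 6 marker lists were chosen with earlier results of these data known. Lists are described by counts and medians, without a set test. Named genes were the 12 largest changes each way (protein-coding, called, groups apart, at least 10 CPM in the higher group), the 6 most abundant called changes of at least 2-fold each way, the 8 largest interactions and the 5 largest opposite changes each way, the 4 (at most) smallest p-values in every list, with members that went against their list or did not pass, and a set list. Of 677 such genes, 70 overlap a gene with a count of 10% of theirs or more. Some of these genes are not reported here. Alternatives were RLE and total-count scaling, no filter, a filter at 5 CPM, DESeq2 1.42.0, the 6 LPS libraries alone, and leaving out each library.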

Additional observations from a re-analysis of the deposited data

Results flagged for a closer look

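The medium difference was not the same with and without LPS for 3173 genes that were more positive with LPS and 2546 that were more negative, by the interaction term in edgeR. The following values are that difference on the log2 scale, with LPS minus without, for genes named by size. Those more positive with LPS were Tent5c (2.61), the oxysterol receptor Gpr183 (2.55), Thbd (2.42), which encodes thrombomodulin, Zfp395 (2.33), Scml4 (2.32), Bcl6 (2.28) and Gpr65 (2.16). Gpr183 with LPS was at 1.54, 3.03 and 2.54 CPM in MOPS against 0.653, 0.692 and 0.556 CPM in HEPES, against 18.6, 17.6 and 17.4 CPM in MOPS and 26.3, 27.2 and 30.7 CPM in HEPES without LPS. For Scml4 the levels with LPS overlapped, at 1.85, 1.61 and 2.15 CPM in MOPS against 1.85, 1.6 and 1.95 CPM in HEPES, while without LPS they were 6.44, 5.83 and 6.44 CPM in MOPS and 29.3, 29.9 and 30.8 CPM in HEPES.

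Those more negative with LPS were Penk (-3.28), Gfpt2 (-2.74), the neutrophil chemokine Cxcl3 (-2.71), Ptgs2 (-2.69), Noct (-2.56), Ggct (-1.94) and Plpp3 (-1.79). Cxcl3 with LPS was at 715, 552 and 544 CPM in MOPS against 794, 823 and 724 CPM in HEPES (-0.37, adjusted p = 0.127), so that a higher level in MOPS without LPS (8.86, 10.2 and 6.23 against 0.810, 3.42 and 0.811 CPM) was not seen with it. Without library 7 the decrease of Cxcl3 with LPS passed (-0.554, adjusted p = 0.0411). Sele (-6.95), Has1 (-5.07), Csf2 (-3.90) and Shisa3 (-2.82) were also among them, but these fitted values rest on few counts without LPS and are no bounds. Over 3 libraries each, untreated MOPS and HEPES held 1 and 0 counts of Sele, 5 and 0 of Has1, which makes hyaluronan, 6 and 3 of Csf2, and 8 and 5 of Shisa3, which overlaps Atp8a1. The call of Sele was lost without untreated MOPS library 2 (-5.21, adjusted p = 1.0), that of Has1 without library 1 (-4.36, adjusted p = 0.0809) or 3 (-4.87, adjusted p = 0.0506), that of Csf2 without library 2 (-3.98, adjusted p = 0.0525) or 3 (-2.94, adjusted p = 0.199), and that of Shisa3 without library 3 (-2.38, adjusted p = 0.0993).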

How the results depend on the processing

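The counts of genes called in the comparison with LPS stayed within 1.5 times their value in every alternative run. Leaving out each library in turn gave 3259 to 3723 higher and 3653 to 4167 lower genes, 813 to 906 higher and 626 to 685 lower by at least 2-fold, and 2522 to 2990 more positive and 2346 to 2932 more negative in the interaction. The exception was the count of changes of at least 2-fold with a stricter filter (mean of at least 5 CPM in 1 of the groups with LPS). This filter left 9445 genes, of which 405 were higher and 281 lower, in place of 899 and 624 of 14506. A large part of the changes of at least 2-fold thus lay in genes under this level. DESeq2 called 3613 higher and 3836 lower, and total-count scaling 4885 and 2942. Of 213 genes named in the text and called, 203 kept their call in every alternative that gave them a value, and 10 lost it in at least 1: Birc3, Cd55, Cyld, Il10, Il6, Mcoln1, Nfkbie, Rela, Slc2a1 and Tfrc. A further 7 that did not pass with the settings above passed in at least 1 alternative: Acod1, Ccl9, Cxcl2, Cxcl3, H2-K1, Nfkbiz and Tnf. No named gene was called in opposite directions in these settings. Among genes not called with the settings above, the sign did change in H2-K1 (-0.0545 to 0.113), Nfkbiz (-0.122 to 0.0416) and Ccl9 (-0.177 to 0.0588). It also changed in Ccl5 (-0.0975 to 0.101) and Scml4 (-0.0718 to 0.141). The cause of the lost and gained calls was not tested. No paired analysis was possible because the replicate numbers run from 1 to 12 over the groups and no number is shared between groups. At this depth genes below about 1 CPM rest on few counts, and their fold changes are uncertain.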
